A study of Homo sapiens with 35 samples.

Results

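ZNF608 and ZNF609 are paralogous zinc finger proteins, and the comparison described here set their depletions directly against each other. Its members were the 4 libraries labelled for a siPOOL against ZNF608 (numbers 1 and 2) or against ZNF609 (numbers 1 and 2), out of 35 libraries in the series, chosen by their labels and paired by that number. All were total RNA from HEK293T, a human line of embryonic kidney origin, harvested after 72 h of depletion with 5 nM siPOOL, a mixture of many small interfering RNAs that target the same transcript. The groups compared here were ZNF608 depletion (n = 2), ZNF609 depletion (n = 2), INTS13 depletion (n = 2, numbers 3 and 4), and cells given a control siPOOL (n = 3, numbered 1, 2a and 2b, and n = 4, numbered 3 and 4); all of these were kept in glucose. Other groups entered the fits, which shared one estimate of the spread: the depletions of TSPYL2, ZEB1 and ZNF687 (n = 2 each) among the 13 libraries of numbers 1 and 2, and the depletions of HDGF and ZNF655 (n = 2 each) and 8 libraries of HDGF depletion, INTS13 depletion and control starved of glucose for 24 h among the 18 libraries fitted for INTS13. The series asked how the Integrator complex and transcription factors that interact with it relate in function. The line stands for a single cell background, each depletion was partial, only RNA was measured, and the labels do not say whether libraries of a group came from separate cultures, so a p-value here covers the spread between libraries, which may be technical. Controls 2a and 2b were much closer to each other than to control 1, so these controls may hold fewer independent units than libraries.

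In mouse cortical neurons the ZNF609 ortholog Zfp609 binds the cohesin loader Nipbl and Integrator subunits and acts in neuronal migration. In mouse thymocytes Zfp608 represses Rag1 and Rag2, the genes of the V(D)J recombinase, and Zfp609 counteracts it. Integrator cleaves nascent RNA at small nuclear RNA genes, enhancers and many protein-coding genes, and cohesin shapes chromosome loops. The ZNF609 gene also makes a circular RNA, whose reads cannot be told apart from those of the messenger RNA in gene counts of total RNA.

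Because the proteins are paralogs, identical stretches in their transcripts bear on how separately they can be depleted and counted. In GENCODE 29, 10 transcripts of ZNF608 and 4 of ZNF609 shared 0 stretches of 100 bases, the read length. They shared 10 overlapping stretches of 19 bases, within a run of 26 bases and a run of 20 bases outside the coding part. The longest identical run was 26 bases within the coding part of both, at chr5:124648699-124648724 on the minus strand for ZNF608 and at chr15:64674340-64674365 on the plus strand for ZNF609 (hg38). It is shown, with no base in capitals, because a single small interfering RNA could match both genes there, as it could in the 20-base run. The siPOOL sequences were not used here.
ZNF608 and ZNF609, shared coding run: gactgtccccacccaaactgcaacaa

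The libraries matched their labels. ZNF608 (ENSG00000168916, chromosome 5, 124636913 to 124748807) was measured at 12.1 and 12.6 CPM (counts relative to library size, scaled by TMM) in ZNF608 depletion, at 28.2 and 28.7 CPM in ZNF609 depletion, and at 17.6, 23.6 and 24.99 CPM in control. The 2 depletions did not overlap, and ZNF608 depletion was also below every control. Between the depletions the log2 change, ZNF608 over ZNF609 depletion throughout, was -1.21 ± 0.14 (SE; edgeR adjusted p = 0.00235), and ZNF608 depletion left 55.9% of the control level (adjusted p = 0.0121). ZNF609 (ENSG00000180357, chromosome 15, 64460742 to 64686068) was measured at 37.6 and 43.6 CPM in ZNF608 depletion, at 20.4 and 17.8 CPM in ZNF609 depletion, and at 28.6, 44.6 and 43.8 CPM in control. Again the depletions did not overlap; the log2 change was 1.08 ± 0.17 (adjusted p = 0.0153), and ZNF609 depletion left 48.9% of control (adjusted p = 0.0364). Neither paralog passed the test in the depletion of the other. ZNF608 stood at 129.1% of control after ZNF609 depletion (log2 change 0.42 ± 0.13, adjusted p = 0.305), above all 3 controls, and ZNF609 at 104.2% of control after ZNF608 depletion (0.15 ± 0.15, adjusted p = 0.703), within the control range. Over all 35 libraries on a common scale, ZNF608 had its lowest level in ZNF608 depletion (13.1 to 13.4 CPM), with ZNF687 depletion next (15.7 to 19.02 CPM). ZNF609 had its lowest level in ZNF609 depletion (18.9 to 21.7 CPM), with controls 1 to 2b reaching down to 30.6 CPM and ZEB1 depletion to 29.2 CPM. The difference in ZNF608 between the depletions lost its call with no pair number in the fit (edgeR adjusted p = 0.1715) and without ZNF608 library 2 (0.0826). That in ZNF609 lost its call with no pair number (0.605), with the control numbers of the titles (0.142), in a fit of the 10 depleted libraries (0.0746), without number 2 (0.0896), and without ZNF608 library 1 (0.287), ZNF608 library 2 (0.0906) or ZNF609 library 2 (0.1001). Against control, the ZNF608 call was lost without ZNF608 library 1 or 2 (adjusted p = 0.092 and 0.215) or control 2a or 2b (0.0503 and 0.0648), and the ZNF609 call without ZNF609 library 2 (0.38) or control 1, 2a or 2b (0.0936, 0.138 and 0.173).

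**Figure D1:**
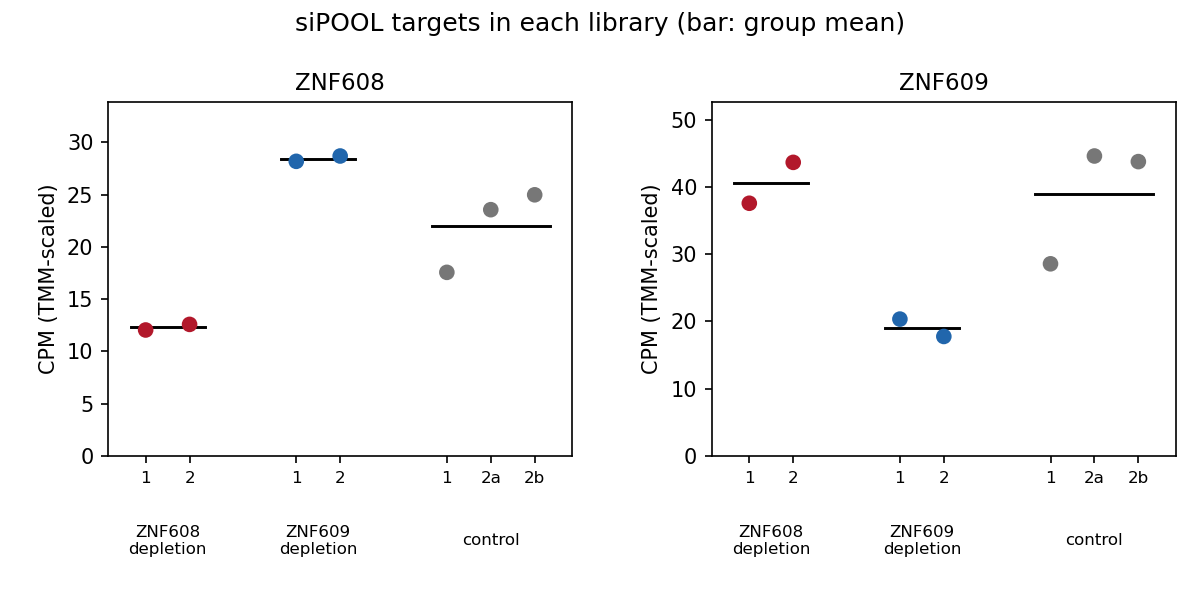
TMM-scaled CPM of ZNF608 (left) and ZNF609 (right) in each library of ZNF608 depletion, ZNF609 depletion and control, with numbers on the x axis and the group mean as a bar. Each target is lowest in its own depletion: ZNF608 at 12.1 and 12.6 CPM, ZNF609 at 20.4 and 17.8 CPM.

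Few genes were called between the depletions in the fit of 13 libraries. With 2 libraries per depletion, a count of calls does not measure how many genes differ. Of 18913 genes tested, 85 (0.449%) were called at an edgeR adjusted p below 0.05: 26 (0.137%) were higher and 59 (0.312%) lower in ZNF608 than in ZNF609 depletion, and 13 differed at least 2-fold. Of all genes tested, 3128 (16.5%) stood apart upwards, with no overlap between libraries of the depletions, and 3403 (18%) downwards. The called genes were selected on this same difference, so their lack of overlap adds no support. It held for all 26 higher and 58 of the 59 lower genes. FZD6, a Wnt receptor named after its values were seen, was the exception, at 35.9 and 25.1 CPM in ZNF608 depletion against 55.5 and 34.8 CPM in ZNF609 depletion. Against the controls, which both comparisons share, ZNF608 depletion gave 333 calls (1.76%; 144 or 0.761% higher, 189 or 0.999% lower), and ZNF609 depletion gave 36 (0.19%; 20 or 0.106% higher, 16 or 0.0846% lower). The calls leaned on the pairing by number and on single libraries. With no pair number in the fit, 2 genes were called, CHGB among them. Other settings raised the number, to 223 with DESeq2 and the pair number and to 1087 from the 4 libraries alone. The 85 calls became 6 without ZNF608 library 1, 1 without ZNF608 library 2, 36 without ZNF609 library 1 and 33 without ZNF609 library 2. The 333 calls became 11 and 19 without ZNF608 library 1 or 2 and 80, 84 and 68 without control 1, 2a or 2b, and the 36 became 4 without ZNF609 library 2 and 9, 11 and 2 without control 1, 2a or 2b. Of 34 genes called under the naming rule, 5 stayed called without ZNF608 library 1, 1 without ZNF608 library 2, 20 without ZNF609 library 1 and 15 without ZNF609 library 2; 1 of the 34 was called in every one of 16 alternatives, and no named call changed direction in any.

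**Figure D2:**
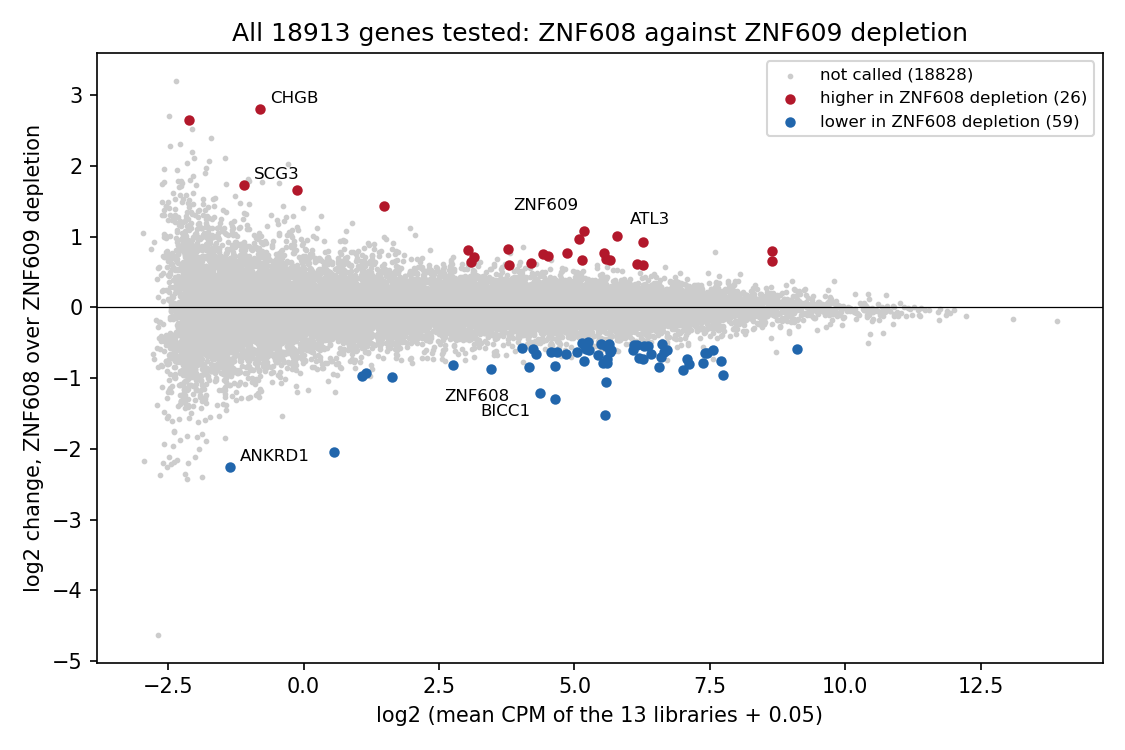
Log2 change between ZNF608 and ZNF609 depletion (y axis) against the log2 mean CPM of 13 libraries (x axis) for the 18913 genes tested. The 26 genes called higher in ZNF608 depletion are red, the 59 called lower are blue and the others grey; the largest changes, such as CHGB, belong to genes of low level.

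Among genes lower in ZNF608 depletion was BICC1 (chromosome 10, 58512872 to 58831435), an RNA-binding protein linked to cystic kidney disease. BICC1 was measured at 11.04 and 13.02 CPM in ZNF608 depletion, at 28.5 and 30.6 CPM in ZNF609 depletion, and at 22.8, 29.1 and 30.4 CPM in control. It was low only in the ZNF608-depleted libraries among these 7, with a log2 change of -1.30 ± 0.13 (edgeR adjusted p = 0.000752; 0.0826 without ZNF608 library 2). UGP2, the enzyme that makes UDP-glucose, stood at 29.5 and 24.4 CPM in ZNF608 depletion, at 55.8 and 55.4 CPM in ZNF609 depletion and at 44.1 to 61.0 CPM in control (log2 change -1.06 ± 0.14, adjusted p = 0.00527).

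From VAPA to NEK10 in the genes that follow, ZNF608 depletion also lay below every control. VAPA, which tethers the endoplasmic reticulum to other organelles, was measured at 83.7 and 68.7 CPM in ZNF608 depletion, at 146 and 134 CPM in ZNF609 depletion, and at 128 to 169 CPM in control. Its log2 change was -0.88 ± 0.11 (edgeR adjusted p = 0.00286). BZW1, a regulator of translation initiation, was measured at 138 and 123 CPM in ZNF608 depletion, at 244 and 263 CPM in ZNF609 depletion, and at 199 to 257 CPM in control, a log2 change of -0.96 ± 0.11. KIFAP3, the adaptor subunit of kinesin-2, stood at 31.5 and 29.9 CPM in ZNF608 depletion, at 54.5 and 51.7 CPM in ZNF609 depletion, and at 50.1 to 56.1 CPM in control (-0.79 ± 0.11). PLOD2, a lysyl hydroxylase of collagen, had a log2 change of -0.81 ± 0.11. PLEKHB2, a protein of recycling endosomes, was measured at 62.3 and 72.1 CPM in ZNF608 depletion, at 116.5 and 125.7 CPM in ZNF609 depletion, and at 98.7 to 116.1 CPM in control (-0.85 ± 0.12), with ZNF609 depletion above every control. FCGRT, the neonatal Fc receptor, was measured at 5.46 and 6.82 CPM in ZNF608 depletion, at 12.1 and 10.6 CPM in ZNF609 depletion and at 13.8 to 14.8 CPM in control, so that both depletions lay below every control. All of these, and the zinc finger gene ZNF138 (-0.83 ± 0.13), were also called against control in ZNF608 depletion, and none of them in ZNF609 depletion. NEK10, a kinase, stood at 4.98 and 5.17 CPM in ZNF608 depletion, at 9.81 and 8.18 CPM in ZNF609 depletion and at 5.80 to 6.57 CPM in control. ZNF609 depletion was again above every control, and neither depletion was called against control.

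Among genes higher in ZNF608 depletion, some lay below every control in ZNF609 depletion. ATL3 (chromosome 11, 63624087 to 63671921), an atlastin that fuses tubules of the endoplasmic reticulum, was measured at 71.2 and 70.9 CPM in ZNF608 depletion, at 36.0 and 35.01 CPM in ZNF609 depletion, and at 60.1, 60.9 and 58.5 CPM in control. The groups did not overlap, and the log2 change between depletions was 1.00 ± 0.12 (edgeR adjusted p = 0.00235; 0.0753 without ZNF608 library 1 and 0.0826 without ZNF608 library 2); against control it was 0.26 ± 0.11 in ZNF608 depletion (adjusted p = 0.26) and -0.75 ± 0.11 in ZNF609 depletion (adjusted p = 0.0156). CARNMT1, which methylates carnosine, stood at 101 and 96.2 CPM in ZNF608 depletion, at 51.0 and 53.2 CPM in ZNF609 depletion and at 67.4 to 89.9 CPM in control (0.92 ± 0.12, adjusted p = 0.00511). EFCAB14, an EF-hand protein, was measured at 55.1 and 57.97 CPM in ZNF608 depletion, at 36.6 and 33.5 CPM in ZNF609 depletion, and at 50.4 to 53.8 CPM in control (0.69 ± 0.11). LONRF1, a RING finger protein, was measured at 25.3 CPM in both libraries of ZNF608 depletion, at 15.7 and 14.4 CPM in ZNF609 depletion and at 19.9 to 26.5 CPM in control (0.75 ± 0.13). Among called genes named after their values were seen, VDAC1, the outer mitochondrial membrane channel, was measured at 422 and 452 CPM in ZNF608 depletion, at 234 and 324 CPM in ZNF609 depletion and at 407 to 465 CPM in control. MDK, the growth factor midkine, and NEK7, a mitotic kinase, also lay below every control in ZNF609 depletion, and ATL3, VDAC1, MDK and NEK7 fell in ZNF609 depletion against control.

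Other higher genes lay above every control in ZNF608 depletion. WASF3, which drives actin branching, was measured at 60.9 and 71.6 CPM in ZNF608 depletion, at 36.7 and 41.0 CPM in ZNF609 depletion, and at 38.7, 50.9 and 45.2 CPM in control. ZNF608 depletion stood apart and ZNF609 depletion reached into the control range, with a log2 change of 0.77 ± 0.14 (edgeR adjusted p = 0.0335). The log2 changes of the zinc finger genes ZNF304 and ZNF805, both on chromosome 19, were 0.71 ± 0.13 and 0.82 ± 0.14. WASF3 and ZNF304 rose in ZNF608 depletion against control, and ZNF805 did not pass (adjusted p = 0.0507). AMOT, a scaffold that binds YAP, lay among the controls in part: it was measured at 414 and 560.3 CPM in ZNF608 depletion, at 240.1 and 319 CPM in ZNF609 depletion, and at 265, 481 and 499 CPM in control. Within number 1 and within number 2 the controls stood between the depletions. AMOT differed between the depletions (0.80 ± 0.16, adjusted p = 0.0451) and was called against control in neither.

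**Figure D3:**
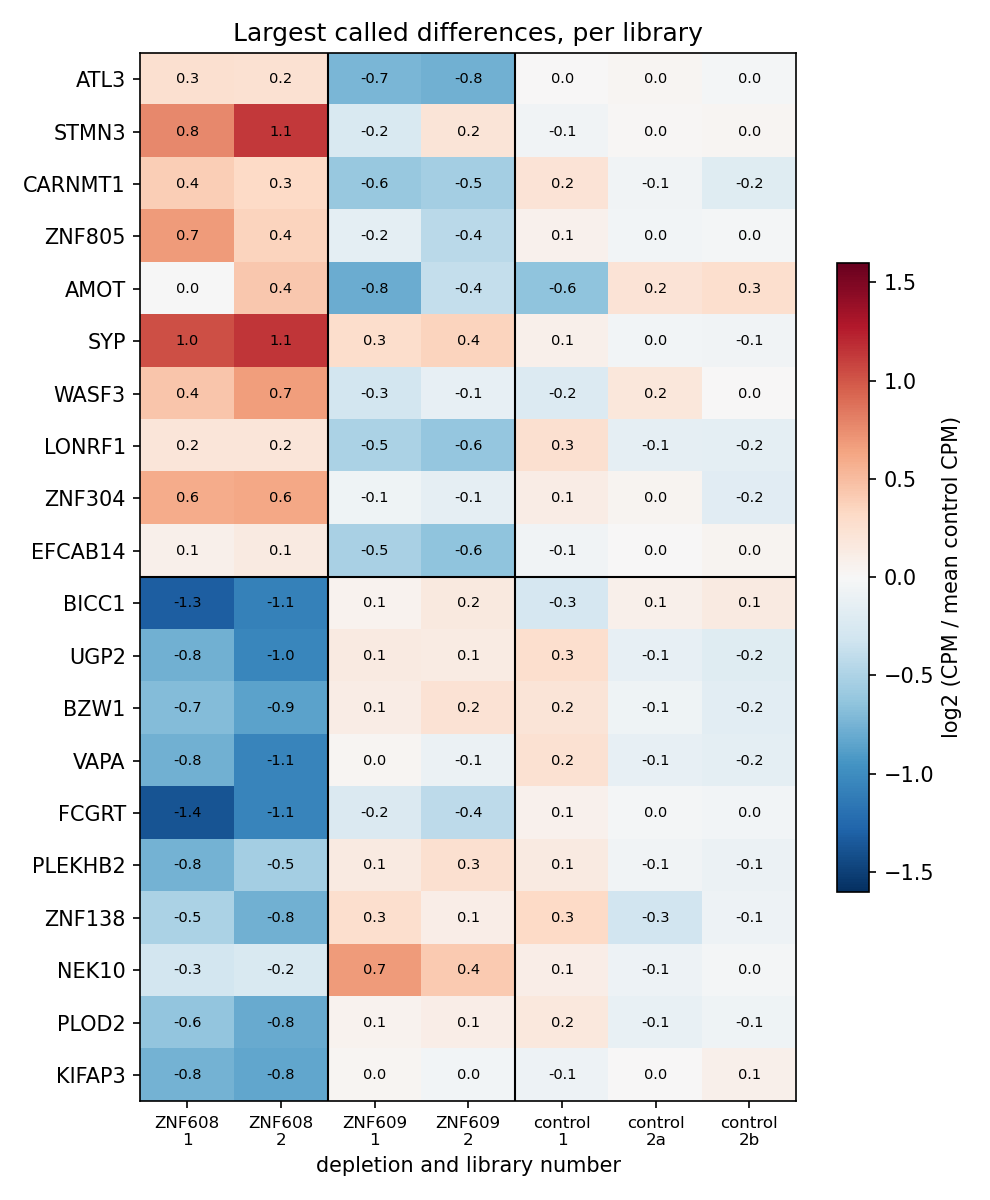
Log2 ratio of each library's CPM to the mean control CPM (colour and printed value) for 20 of the genes with the largest called differences, the siPOOL targets left out; columns are libraries of ZNF608 depletion, ZNF609 depletion and control. ATL3, CARNMT1 and EFCAB14 are lowest in ZNF609 depletion, whereas SYP and STMN3 are highest and BICC1 and UGP2 lowest in ZNF608 depletion.

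Over the 26 higher genes, the median log2 change against control was 0.59 in ZNF608 depletion and -0.26 in ZNF609 depletion; over the 59 lower genes it was -0.58 and 0.14 in the same order. Both use the same controls, and the genes were selected for the difference between the depletions, so these values only describe where that difference lay. The control mean stood between the 2 depletions for 17 of 26 higher and 42 of 59 lower genes. ZNF608 depletion was further from control than ZNF609 depletion for 17 of the 26 and 53 of the 59. Against control, 14 of 26 and 42 of 59 were called in ZNF608 depletion, beside 1.76% of all genes tested. In ZNF609 depletion 5 and 2 were called, beside 0.19%. Place and distance of the control were counted for the called genes only, so no share over all genes stands beside them.

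Neuronal genes were the only list of 30 with more than 1 member called. The list holds 38 genes of synapses, secretory granules, the neuronal cytoskeleton and adhesion, was chosen with earlier results of these data known, and had 28 members tested. 5 were higher and 0 lower in ZNF608 than in ZNF609 depletion, beside 0.137% and 0.312% of all genes tested, 23 did not pass, and the median log2 change was 0.22, beside -0.0016 over all genes tested. In bulk RNA, more cells that express such genes and more of their RNA per cell cannot be told apart. SYP (chromosome X, 49187804 to 49200259), the synaptic vesicle protein synaptophysin, was measured at 44.8 and 48.5 CPM in ZNF608 depletion, at 26.6 and 28.2 CPM in ZNF609 depletion, and at 23.3, 21.4 and 21.2 CPM in control. The groups did not overlap; the log2 change between depletions was 0.77 ± 0.11 (edgeR adjusted p = 0.00561), and the call was lost without ZNF608 library 1 (0.0677), ZNF608 library 2 (0.1295) or ZNF609 library 1 (0.0629). STMN3 (chromosome 20, 63639705 to 63657682), a stathmin that regulates microtubules, was measured at 50.6 and 64.9 CPM in ZNF608 depletion, at 24.9 and 34.1 CPM in ZNF609 depletion, and at 28.6, 30.1 and 30.2 CPM in control. ZNF608 depletion stood apart and ZNF609 depletion spanned the controls, with a log2 change of 0.97 ± 0.13 (adjusted p = 0.00475; 0.091 without ZNF608 library 2). GNG4, a G protein gamma subunit, was the remaining call, outside the rule that capped named members at 4 per list, and had 51.6 and 47.1 CPM in ZNF608 depletion, 30.9 and 31.1 CPM in ZNF609 depletion, and 27.8 to 32.4 CPM in control.

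The granins CHGB and SCG3, proteins of dense-core secretory granules, were low throughout. CHGB was measured at 1.4 and 1.78 CPM (59 and 92 counts) in ZNF608 depletion, at 0.276 and 0.195 CPM (8 and 10 counts) in ZNF609 depletion, and at 0.301 to 0.400 CPM in control (12, 14 and 15 counts). Its log2 change of 2.81 ± 0.33 was the largest of all calls (edgeR adjusted p = 0.00235), and the call was lost without ZNF608 library 2 (0.0826) or ZNF609 library 2 (0.0531). SCG3 had 1.09 and 1.01 CPM (46 and 52 counts) in ZNF608 depletion, 0.276 and 0.332 CPM (8 and 17 counts) in ZNF609 depletion, and 0.257 to 0.424 CPM in control, a log2 change of 1.73 ± 0.32 (adjusted p = 0.0321). CHGA, another granin of the list, pointed the same way without passing the test, at 1.33 and 2.13 CPM in ZNF608 depletion against 0.656 and 0.664 CPM in ZNF609 depletion (1.4 ± 0.35, adjusted p = 0.126). SYT11, a synaptotagmin, had the lowest change on the list, -0.91 ± 0.23 (adjusted p = 0.1395). Against control, 6 of the 28 were higher in ZNF608 depletion, among them INA, a neuronal intermediate filament (0.78, adjusted p = 0.00294), and 0 in ZNF609 depletion, beside 0.761% and 0.106% of all genes tested. The number of list members called between the depletions was 1 with no pair number (CHGB), 2 without ZNF608 library 1, 0 without ZNF608 library 2, and 2 without either ZNF609 library. NEFL, the neurofilament light chain that HEK293T cells are known to express, was at 99.4 and 88.9 CPM on average in ZNF608 and ZNF609 depletion, with a log2 change of 0.17 ± 0.10.

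**Figure D4:**
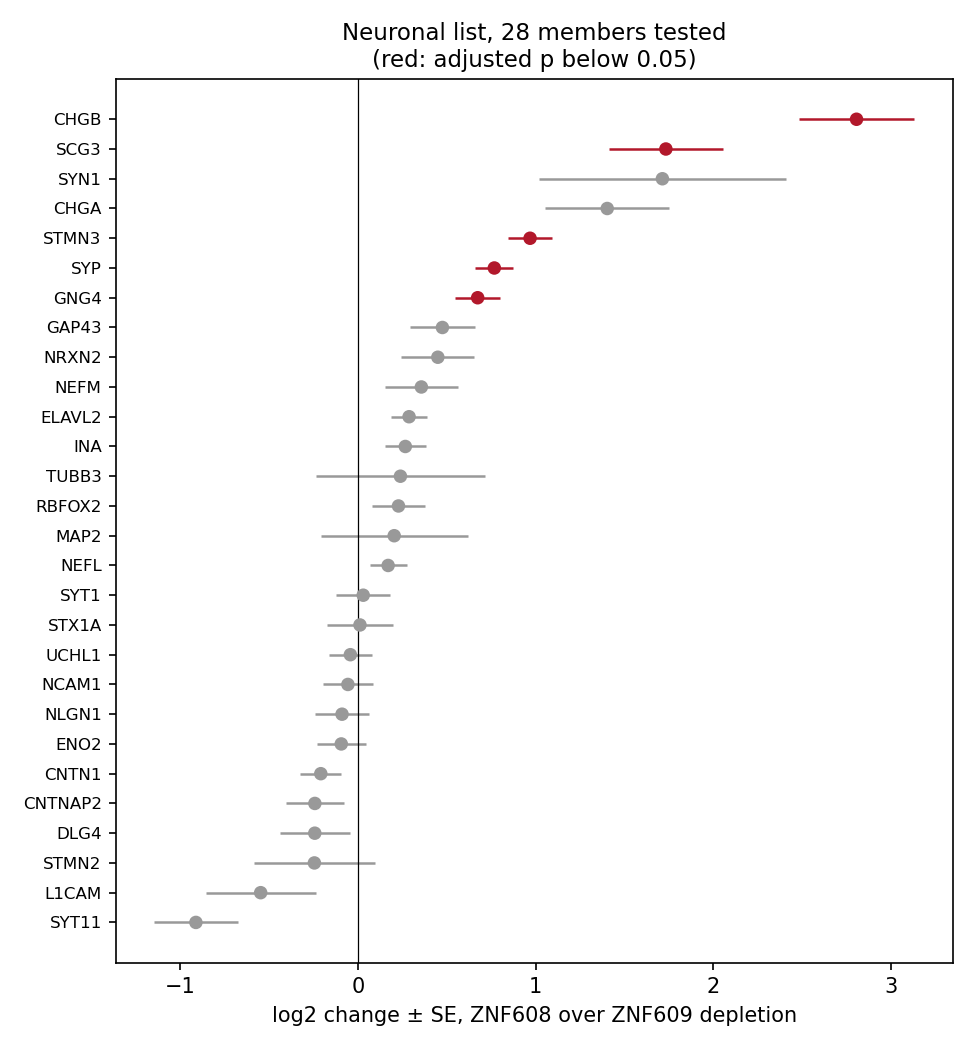
Log2 change between ZNF608 and ZNF609 depletion with its SE (x axis) for the 28 neuronal list members tested, ordered by size. The 5 called members, CHGB, SCG3, STMN3, SYP and GNG4, are red; the other 23 lie on both sides of 0.

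Promoters of 3 of the 5 called neuronal genes are shown because these genes differed together; each is the 300 bases from 250 before to 50 after the annotated start in RefSeq (GRCh38.p14). They are SYP at chrX:49200144-49200443 (minus strand), STMN3 at chr20:63652717-63653016 (minus strand) and SCG3 at chr15:51681253-51681552 (plus strand). Capitals mark TCAGCACC, the left part of the RE1 element bound by REST, a repressor of neuronal genes, searched on both strands.
SYP: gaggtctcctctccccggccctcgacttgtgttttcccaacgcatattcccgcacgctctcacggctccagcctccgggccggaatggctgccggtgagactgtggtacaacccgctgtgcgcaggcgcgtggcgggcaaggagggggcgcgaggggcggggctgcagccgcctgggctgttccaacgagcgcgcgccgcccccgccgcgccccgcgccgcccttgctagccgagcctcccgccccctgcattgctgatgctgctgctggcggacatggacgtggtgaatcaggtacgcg
STMN3: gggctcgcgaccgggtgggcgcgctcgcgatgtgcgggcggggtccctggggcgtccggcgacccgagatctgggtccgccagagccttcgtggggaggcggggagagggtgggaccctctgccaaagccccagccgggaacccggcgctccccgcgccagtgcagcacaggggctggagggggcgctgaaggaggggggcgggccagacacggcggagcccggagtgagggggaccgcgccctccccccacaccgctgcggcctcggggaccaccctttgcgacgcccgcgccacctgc
SCG3: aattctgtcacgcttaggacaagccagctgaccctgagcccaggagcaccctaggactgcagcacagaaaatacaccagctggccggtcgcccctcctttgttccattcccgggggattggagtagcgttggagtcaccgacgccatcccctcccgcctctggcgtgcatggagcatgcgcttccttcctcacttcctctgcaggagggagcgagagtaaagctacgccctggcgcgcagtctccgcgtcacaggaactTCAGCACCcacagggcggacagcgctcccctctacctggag
SCG3 held 1 match, and SYP, STMN3 and GNG4 held 0. The promoter of CHGB was not among those searched. An exact search for part of the element in 300 bases cannot show that a gene lacks it, and a part of REST in these differences was not tested. Of the 26 higher genes, 17 had a promoter in the table and 1 held the match (SCG3); of the 59 lower genes, 42 had a promoter and 0 held it. Over all 35116 promoters of the same length, 588 (1.67%) held TCAGCACC. REST itself was measured at 49.0 and 55.9 CPM in ZNF608 depletion, at 67.1 and 67.8 CPM in ZNF609 depletion, and at 65.4 to 74.1 CPM in control. The depletions did not overlap, but the difference did not pass the test (log2 change -0.37 ± 0.12, edgeR adjusted p = 0.289).

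2 called genes outside the naming rule, singled out after their values were seen, belong to the same kind of cells. CPLX1, the presynaptic protein complexin, was measured at 4.79 and 6.66 CPM in ZNF608 depletion, at 1.49 and 2.81 CPM in ZNF609 depletion, and at 1.36 to 2.83 CPM in control (log2 change 1.43 ± 0.24, edgeR adjusted p = 0.0172). MIR9-3HG, the host transcript of a miR-9 gene, a microRNA of neural tissue, was measured at 0.546 and 0.678 CPM in ZNF608 depletion, at 0.0691 and 0.117 CPM in ZNF609 depletion, and at 0.0571 to 0.0803 CPM in control. It passed the filter on low counts largely through the group where it was high, with TSPYL2 depletion at 0.163 and 0.327 CPM. Its call therefore adds no support, and no p-value is given. Its log2 change was 2.64 ± 0.45. The mature products of that gene were not measured here; they are shown, with the seed (bases 2 to 8) in capitals, to identify the transcript, and are encoded at chr15:89368032-89368054 and chr15:89368071-89368092 on the plus strand (RefSeq, GRCh38.p14).
hsa-miR-9-5p: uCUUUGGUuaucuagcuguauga
hsa-miR-9-3p: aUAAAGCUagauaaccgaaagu

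The genes taken up for the findings in mouse were not called between the depletions where they were tested, which does not show that they were alike. NIPBL, the cohesin loader, was measured at 82.6 and 75.5 CPM in ZNF608 depletion, at 90.3 and 82.2 CPM in ZNF609 depletion, and at 72.5 to 97.3 CPM in control. The libraries overlapped (log2 change -0.13 ± 0.18, edgeR adjusted p = 0.915). Its partner MAU2 had a log2 change of 0.12 ± 0.14 (adjusted p = 0.876), and INTS13 one of -0.05 ± 0.13 (adjusted p = 0.966). MAU2 did not overlap, at 58.8 and 66.7 CPM in ZNF608 depletion against 58.3 and 56.7 CPM in ZNF609 depletion. Of all genes tested, 16.5% stood apart upwards in this way. RAG1 was low, at 1.64 and 1.51 CPM in ZNF608 depletion, at 1.52 and 1.76 CPM in ZNF609 depletion, and at 1.48 to 2.00 CPM in control (-0.06 ± 0.21, adjusted p = 0.976). RAG2 was under the filter on low counts and was not tested.

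In the cohesin list, 1 of 15 members was called, beside 0.449% of all genes tested. ESCO2, which acetylates cohesin during DNA replication, was measured at 41.6 and 31.7 CPM in ZNF608 depletion, at 59.5 and 45.9 CPM in ZNF609 depletion, and at 38.02 to 47.8 CPM in control (log2 change -0.53 ± 0.10, edgeR adjusted p = 0.0321), with neither depletion called against control. In the Integrator list, 1 of 20 was called: INIP, a small subunit of the SOSS complex that joins Integrator subunits in DNA repair, stood at 29.1 and 27.3 CPM in ZNF608 depletion, at 47.4 and 38.8 CPM in ZNF609 depletion, and at 35.3 to 48.9 CPM in control (-0.60 ± 0.11, adjusted p = 0.0227). The list medians were -0.02 for cohesin and -0.01 for Integrator. No call was made among 17 genes of pausing and elongation, 11 small nuclear RNAs, 38 replication-dependent histones or 80 cytosolic ribosomal proteins. With 0.449% of all genes tested called, the lack of a call in lists of these sizes says nothing about them.

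4 other lists had 1 member called, each lower in ZNF608 depletion, where 0.312% of all genes tested were called lower. CCNE2, a cyclin of the entry into S phase and 1 of 40 cell cycle genes, was measured at 33.8 and 30.3 CPM in ZNF608 depletion, at 56.9 and 52.98 CPM in ZNF609 depletion, and at 37.7 to 55.0 CPM in control (log2 change -0.78 ± 0.12, edgeR adjusted p = 0.0132). SLC16A1, the lactate transporter MCT1 and 1 of 25 glycolysis genes, was measured at 352 and 347 CPM in ZNF608 depletion, at 529 and 523 CPM in ZNF609 depletion, and at 561 to 727 CPM in control (-0.59 ± 0.12, adjusted p = 0.0427). SEMA3C, a guidance cue and 1 of 59 axon guidance genes, was measured at 25.1 and 23.1 CPM in ZNF608 depletion, at 40.7 and 34.4 CPM in ZNF609 depletion, and at 24.5 to 28.8 CPM in control, so that ZNF609 depletion was the group that stood apart (-0.64 ± 0.12, adjusted p = 0.0291). ANKRD1, a YAP target and 1 of 14 tested, rested on few reads, 10 and 2 counts in ZNF608 depletion against 25 and 21 in ZNF609 depletion (-2.26 ± 0.45, adjusted p = 0.0462). CCNE2 overlaps the Integrator gene INTS8 and NDUFAF6, ESCO2 overlaps CCDC25 and PBK, and SLC16A1 overlaps its antisense gene, all on the opposite strand; the strand setting of the counting was not given in the sources used here, so reads of the partners may be included.

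Immediate early and MAP kinase feedback genes, and p53 targets, had members called against control and 0 members called between the depletions. Of 30 immediate early and MAP kinase feedback genes, 4 were higher in each depletion than in control. Beside them stand 0.761% of all genes tested in ZNF608 depletion and 0.106% in ZNF609 depletion. EGR1 was measured at 8.57 and 2.69 CPM in ZNF608 depletion, at 12.4 and 5.06 CPM in ZNF609 depletion, and at 3.39, 1.54 and 0.642 CPM in control (log2 change between depletions -0.72 ± 0.29, edgeR adjusted p = 0.431). Of 24 p53 targets, 5 were higher than control in ZNF608 depletion and 0 in ZNF609 depletion, to be read against the same shares of all genes. CDKN1A, the p21 inhibitor of the cell cycle, had log2 changes against control of 0.52 in ZNF608 depletion (adjusted p = 0.0144) and 0.36 in ZNF609 depletion (adjusted p = 0.194), and of 0.16 between them (adjusted p = 0.682). In all, 23 lists had 0 members called, beside 0.449% of all genes tested. Their median log2 changes ran from -0.20 for immediate early and MAP kinase feedback genes to 0.26 for clustered protocadherins. The 36 extracellular matrix genes (0.22) and 14 Wnt response genes (0.15) also lay above the median of all genes without a call. A p that misses the threshold does not show that the depletions acted alike.

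Of 3 called noncoding genes, 2 met the level rule. AC091182.1, a processed transcript on chromosome 8, was measured at 19.8 and 20.96 CPM in ZNF608 depletion, at 33.6 and 39.2 CPM in ZNF609 depletion, and at 13.3, 13.8 and 13.3 CPM in control. The 3 groups did not overlap, and it rose against control in both depletions, with log2 changes of 0.61 ± 0.10 in ZNF608 depletion (edgeR adjusted p = 0.0121) and 1.45 ± 0.10 in ZNF609 depletion (adjusted p = 2.71e-05), and -0.84 ± 0.11 between them (adjusted p = 0.00527). AL035425.2, antisense to IRS4 on chromosome X, was measured at 16.3 and 10.6 CPM in ZNF608 depletion, at 8.47 and 6.68 CPM in ZNF609 depletion, and at 4.80 to 6.15 CPM in control (0.81 ± 0.14, adjusted p = 0.0172).

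Some features of the called genes are given as descriptions, with no test of a difference. They are not independent of the calling: the mean level comes from the same counts that the test used, and longer exons gather more reads. The 24 higher and 58 lower protein-coding calls had median gene lengths of 42830.5 and 61783 bases, beside 34515 bases over the 13724 protein-coding genes tested. Their median exon lengths were 5216 and 6613.5 bases, beside 5215 bases. The medians of their mean level over 13 libraries were 31.4 and 48.1 CPM, beside 27.7 CPM. Symbols starting with ZNF, the targets included, made up 15.4% of all 26 higher and 6.78% of all 59 lower calls, beside 2.51% of the 18913 genes tested.

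Depletion of INTS13, a subunit of Integrator, was measured in libraries that share none with the ZNF608 and ZNF609 comparison. It left INTS13 itself at a log2 change of -2.85 ± 0.06 and gave 5624 calls among 18665 genes (30.1%; 2585 or 13.8% higher, 3039 or 16.3% lower), or 3375 calls without INTS13 library 3. Of the 26 genes higher in ZNF608 than in ZNF609 depletion, 12 (46.2%) rose and 4 (15.4%) fell after INTS13 depletion; of the 59 lower genes, 7 (11.9%) rose and 25 (42.4%) fell. Over the 17978 genes tested in both fits, 14.2% rose and 16.9% fell. These cover every gene type and level, whereas the called genes were mostly protein-coding and of higher median level. The shares are therefore not like for like, and a link to Integrator was not tested. The 12 made up 0.469% of the genes that rose after INTS13 depletion, and the 25 made up 0.825% of those that fell. STMN3 was measured at 33.0 and 29.98 CPM in INTS13 depletion and at 17.9 to 23.4 CPM in its 4 controls (log2 change 0.67 ± 0.09, edgeR adjusted p = 7.29e-06), and SYP at 20.5 and 22.5 CPM against 13.9 to 15.9 CPM (0.53 ± 0.08, adjusted p = 1.55e-05). SEMA3C was measured at 21.7 and 18.1 CPM in INTS13 depletion and at 32.5 to 37.7 CPM in control (-0.84 ± 0.11). WASF3 (-0.37 ± 0.07), EFCAB14 (-0.40 ± 0.06) and PLEKHB2 (0.29 ± 0.05) went the other way from their difference between the paralogs. ZNF609 rose after INTS13 depletion (0.34 ± 0.08, adjusted p = 0.00208), and ZNF608 stood at 0.01 ± 0.09 (adjusted p = 0.951).

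**Figure D5:**
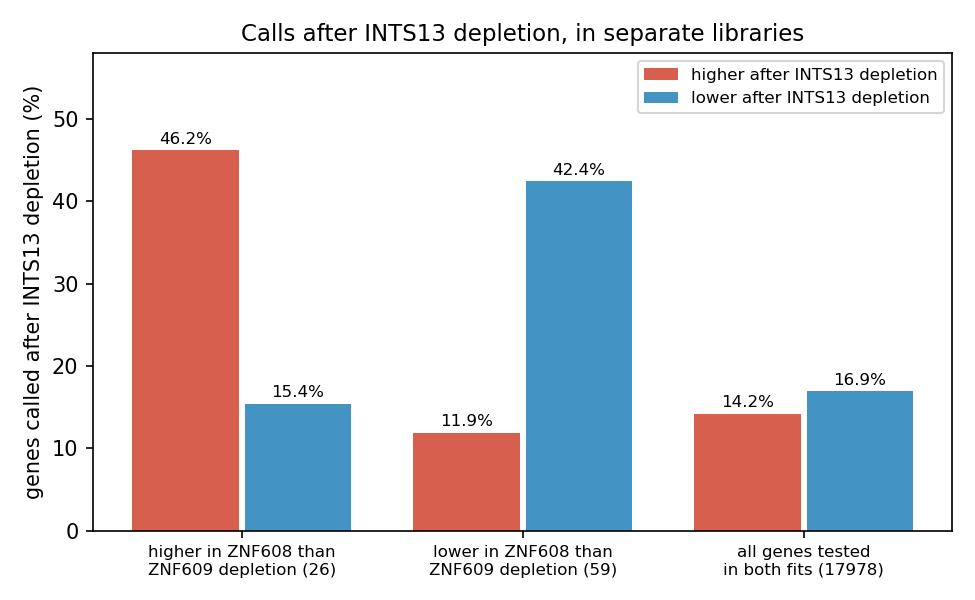
Percent of genes called higher (red) or lower (blue) after INTS13 depletion, for the 26 genes higher and the 59 genes lower in ZNF608 than in ZNF609 depletion and for the 17978 genes tested in both fits. The higher genes rose in 46.2% and the lower genes fell in 42.4%, beside 14.2% and 16.9% of all genes, which were not matched for type or level.

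Depth and cell identity were checked in the libraries compared. The 4 libraries held 28.8 to 50.8 M counts and the 13 libraries of numbers 1 and 2 held 27.8 to 50.8 M. All 8 genes listed as expressed in HEK293T had counts in all 13 libraries, at levels from at least 316 CPM for VIM down to 0.2475 CPM in the lowest library for PAX2. Of 7 markers of other cells, CD3E and HBB had 0 counts, PTPRC and MYH6 at most 1 count in a library, and PECAM1, ALB and LYZ at most 4, 7 and 9. Summed, the 7 stood at 0.256 and 0.322 CPM in ZNF608 depletion, at 0.243 and 0.177 CPM in ZNF609 depletion, and at 0.0838 to 0.197 CPM in control. The share of counts in ribosomal protein genes moved with the number: it was 12.1% and 9.29% in ZNF608 depletion, 11.5% and 10.3% in ZNF609 depletion, and 13.4%, 8.96% and 8.98% in control, and its part in the differences was not tested beyond adding it to the fit, where all 85 genes stayed called.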

How the data were processed

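Total RNA of HEK293T cells was sequenced as stranded libraries with 100-base single-end reads. The authors deposited raw read counts per gene in a single table, made without removing duplicate reads; per the submitters' processing notes FastQC, cutadapt and STAR were used on hg38, without versions. No source used here gives the counting tool, annotation or strand setting. Of its 60665 genes, all 37 mitochondrial genes had 0 counts.

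Groups and pair numbers came from the labels. Control numbers differ between titles and descriptions, and those of the descriptions were used. The 13 libraries numbered 1 and 2 (controls and the depletions of TSPYL2, ZEB1, ZNF608, ZNF609 and ZNF687) were fitted together with edgeR 4.0.16 (R 4.3.3): filterByExpr by group, TMM, 6 groups plus the pair number, quasi-likelihood test, two-sided, Benjamini-Hochberg over 18913 genes, called below 0.05, with 6 residual degrees of freedom. No control entered the contrast between the depletions. The numbers pair the libraries: differences between number 1 and number 2 correlated above 0.1 in 15 of 15 pairs of groups (median r 0.750; 0.597 for ZNF608 with ZNF609; 11439 genes). No libraries of a group agreed within sampling noise. Chi-square per degree of freedom was 5.08 between controls 2a and 2b, which share a number. It was 101.5 and 120.1 between control 1 and controls 2a and 2b, and 22.1 to 233.0 within the depletions. Controls 2a and 2b may therefore not be independent replicates, and statements about every control may rest on fewer units than libraries. INTS13 depletion was fitted with edgeR on 18 other libraries without pair numbers. SE is the log2 change divided by the square root of F.

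Named genes were the targets; in each direction the 12 protein-coding calls of largest log2 change, of at least 4 CPM and without overlap; up to 4 called members per list; up to 4 called noncoding genes; and NIPBL, MAU2, INTS13, RAG1 and RAG2. Some genes this rule picked are not reported here by name but stay in every count. The members of the comparison and the lists were chosen with earlier results of these data known. The fit was also run on simulated counts with the same spread for all genes and no difference between the numbers. The libraries here did differ by number, so that run does not bear on how reliable their calls are. Alternatives were DESeq2 1.42.0, other scaling, filters, pairings and left-out libraries. Identifiers were matched to GENCODE 29 for gene types (58478, 96.4%).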

Additional observations from a re-analysis of the deposited data

Results flagged for a closer look

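BICC1 in the controls numbered 3 and 4 was measured at 28.5 CPM in library 3a, below 32.6 CPM in library 3b and 32.4 and 32.3 CPM in libraries 4a and 4b, a gap that Dixon's test sets apart. It was the only one of 38 genes looked at in these 4 controls, and chance gives about 1 in 20. These libraries serve only the INTS13 comparison, in which BICC1 was not called.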

How the results depend on the processing

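The number of calls moved with most settings, while no named call changed direction in any of 16 alternatives. Between ZNF608 and ZNF609 depletion the 85 calls became 2 with no replicate block, 530 with all 35 libraries and the block (84 of the 85 among them), 171 with all 35 and no block, 17 with the control numbering of the titles, 223 with DESeq2 and the block (84 shared), 248 with no filter on low counts (84 shared), 577 with the ribosomal protein share added (85 shared), 24 from the 10 depleted libraries and 1087 from the 4 libraries alone (85 shared); DESeq2 size factors gave 81. Leaving out single libraries or a number gave 1 to 36. ZNF608 depletion against control went from 333 calls to 10 with no block, 1668 and 532 with all 35 libraries (with and without the block), 50 with the titles' numbering, 724 with DESeq2, 705 unfiltered, 2099 with the ribosomal share, and 11 to 84 without single libraries. ZNF609 depletion against control went from 36 calls to 1, 430, 110, 13, 165, 182 and 504 under the same settings in that order, and 2 to 26 without single libraries. INTS13 depletion gave 3375 to 5743 calls without single libraries, and its replicate block gave 5530. Neuronal list members called ranged from 0 to 7. The cause of these moves was not tested.

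ZNF608 in ZNF608 depletion lost its call against control with no block (-0.84), and ZNF609 in ZNF609 depletion with no block (-1.03) or the titles' numbering (-1.07). ZNF608 after ZNF609 depletion passed the test with all 35 libraries and the block (0.41, adjusted p = 0.0423) and with the ribosomal share (0.42, adjusted p = 0.0184). Uncalled values changed sign when single libraries or a number were left out: NIPBL ranged from -0.33 to 0.084, MAU2 from -0.041 to 0.30, INTS13 from -0.19 to 0.12 and RAG1 from -0.24 to 0.15. Genes of low level, such as ANKRD1 and SCG3, rest on few counts at this depth.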
